A study of Mus musculus with 20 samples.

Results

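Collagen folding and crosslinking enzymes are the proteins that turn newly made collagen chains into stable fibres, and 10 of their genes are described here in whole mouse skin: Serpinh1, P4ha1, P4ha2, Plod1, Plod2, Bmp1, Pcolce, Lox, Loxl1 and Loxl2. Each was found by its symbol among the 46744 rows of the deposited expression table. All 10 had exactly 1 row, and all 10 had a mean of at least 1 FPKM (fragments mapped to a gene, scaled to its length and to the mapped fragments of the library) over the groups. The row of Loxl2 also carries the symbol of the microRNA Mir6950, and the row of Pcolce that of the overlapping gene Fbxo24, so those values belong to the pairs.

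The study sequenced RNA of total skin from 20 C57BL/6 samples in 6 groups. Sod2 encodes the superoxide dismutase of the mitochondrial matrix. Its conditional knockout (cKO, Sod2-/-) gave 3 samples aged 100 days and 3 aged 300 days. Controls (Sod2+/+) gave 5 samples aged 50 days, 2 aged 100 days, 3 aged 300 days and 4 aged 700 days. Neither the Cre line nor the cells losing Sod2 are named in the labels, nor whether samples within a group were separate animals. The table holds 1 FPKM value per gene and group, made by the authors. No value below therefore has a replicate spread, and none was tested. Genes were counted where the log2 ratio of (FPKM + 1) reached a size of 1 in either direction, a 2-fold ratio on that scale. These counts were set against those over 12135 named genes. The depth behind each value is unknown.

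In the endoplasmic reticulum, prolyl 4-hydroxylase (catalytic subunits P4ha1 and P4ha2) hydroxylates prolines that the collagen helix needs to stay folded at body temperature. Lysyl hydroxylases (Plod1, Plod2) hydroxylate lysines that later take part in crosslinks, with Plod1 acting in the helix and Plod2 on the telopeptides at its ends. Serpinh1, also known as HSP47, is a chaperone that binds folded procollagen on its way to the Golgi. Outside the cell, Bmp1 removes the C-propeptide, helped by the enhancer Pcolce, and the copper enzymes Lox, Loxl1 and Loxl2 oxidise lysines to start crosslinking. In skin most of this work is done by dermal fibroblasts.

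Several features of the groups stand beside every result. Sod2 was 17.6 FPKM in cKO and 27.7 FPKM in control skin at 100 days, and 16.8 against 23.5 FPKM at 300 days. Xist, expressed from the inactive X chromosome, was 4.92 FPKM in cKO skin at 100 days, 17.2 in cKO skin at 300 days and 3.69 in 700-day control skin, against 1141, 2187 and 2580 FPKM in the 100-, 300- and 50-day controls (its row carries further symbols). Genotype, and age in the 700-day comparison, therefore cannot be told apart from this sex-linked difference. Sample titles carry 2 prefixes, 1 for the 50- and 700-day groups and 1 for the others, and no ratio was taken across them. Of 16 fibroblast markers all were measured, and they summed to 1364 FPKM in cKO and 1602 in control skin at 100 days, 1281 against 1455 at 300 days, and 1138 at 700 days against 1526 at 50 days. Among these markers the row of S100a4 also carries the symbols S100a3 and Gm42674, so its values are not those of S100a4 alone. To the 100-day sums this shared row added 352 FPKM for cKO and 196 FPKM for controls, a log2 ratio of 0.84. It was 1 of 4 markers above 0 in that comparison, where 12 lay below. Its inclusion makes the gap between the 100-day sums smaller. In RNA of whole skin, fewer fibroblasts and less RNA per fibroblast cannot be told apart. Of 9 cartilage and bone markers only 1 reached a mean of 1 FPKM.

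In GRCm38 (mm10), with GENCODE M21, the enzymes lie apart from each other on several chromosomes. Serpinh1 lies on chromosome 7 from 99345376 to 99353239, P4ha1 on chromosome 10 from 59323296 to 59373304 and P4ha2 on chromosome 11 from 54100095 to 54131665. Plod1 lies on chromosome 4 from 147909753 to 147936767 and Plod2 on chromosome 9 from 92542223 to 92608428. Bmp1 and Loxl2 are both on chromosome 14, from 70474558 to 70520234 and from 69609068 to 69695834. Pcolce lies on chromosome 5 from 137605103 to 137613784 and Loxl1 on chromosome 9 from 58287738 to 58313186.  All 10 are protein-coding, and Lox, Loxl2 and Pcolce each overlap a transcript annotated as antisense.

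The promoters of Serpinh1, P4ha1 and P4ha2 are shown because these genes act at the folding step. Serpinh1 and P4ha2 were counted as lower in cKO skin at 100 days, and P4ha1 had a log2 ratio of -0.74, short of the size counted. Each line gives the 250 bases before the RefSeq start (GRCm38.p6), 5′ to 3′ on the gene's strand. The stretch of P4ha2 lies inside the gene as GENCODE M21 places it (from 54100095), since the RefSeq start used lies further in. Capitals mark ACGTG or GCGTG on either strand, the core letters of the hypoxia response element.
Serpinh1, chr7:99353240-99353489, minus strand: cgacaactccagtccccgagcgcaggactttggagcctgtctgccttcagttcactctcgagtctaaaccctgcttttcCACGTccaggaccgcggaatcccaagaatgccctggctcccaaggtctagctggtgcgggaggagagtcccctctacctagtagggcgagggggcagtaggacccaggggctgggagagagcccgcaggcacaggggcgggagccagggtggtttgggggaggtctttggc
P4ha1, chr10:59323046-59323295, plus strand: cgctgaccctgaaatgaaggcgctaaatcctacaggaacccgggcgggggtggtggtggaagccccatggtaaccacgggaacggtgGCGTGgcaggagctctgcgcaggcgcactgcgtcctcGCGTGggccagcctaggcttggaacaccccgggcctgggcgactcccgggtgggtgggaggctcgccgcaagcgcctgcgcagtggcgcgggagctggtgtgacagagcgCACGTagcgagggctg
P4ha2, chr11:54100674-54100923, plus strand: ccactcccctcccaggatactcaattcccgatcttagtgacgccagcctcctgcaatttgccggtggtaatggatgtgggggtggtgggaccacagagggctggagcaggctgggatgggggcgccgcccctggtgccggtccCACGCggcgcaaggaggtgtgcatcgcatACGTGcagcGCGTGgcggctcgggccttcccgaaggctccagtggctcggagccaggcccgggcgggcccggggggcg
Promoters of 5 members were matched by symbol in the RefSeq table, those of Plod1 and Pcolce being the others. In the full window of 300 bases, ACGTG or GCGTG was found in 5 of 5, against 43.8% of 32851 promoters. ACGTG alone was found in 3 of 5, those of Serpinh1, P4ha1 and P4ha2, against 19.6% of all. GGGCGG, the letters of a GC box, was found in 5 of 5 against 35.7%. TGANTCA, the AP-1 letters, was found in 0 of 5 against 7.81%, and CCAAT in 0 of 5 against 37.4%. GAANNTTC, the core letters of the heat shock element, was found in 1 of 5 (Plod1) against 7.86%. Both strands were searched, and the GC content of the printed stretches was 63.6% for Serpinh1, 69.6% for P4ha1 and 70.0% for P4ha2, against a median of 52.4%. These matches describe letters in a window, not binding.

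Among the 10 genes the order of levels was stable at the top. Serpinh1 was the highest and Pcolce next in all 6 groups, together 43.1% to 57.9% of the summed FPKM of the 10 genes. Loxl1 was the lowest in 4 groups, Loxl2 in the 300-day controls and Plod2 in the 50-day controls. Among the 100- and 300-day groups Plod2 changed place most, with rank 3 in both controls, 5 in cKO skin at 100 days and 9 at 300 days. In the groups of the other prefix Plod2 was at rank 10 at 50 days and rank 9 at 700 days. Lox was at rank 3 in cKO skin at 100 days and rank 7 or 8 in each other group. The 10 genes summed to 113 FPKM in cKO and 202 FPKM in control skin at 100 days, 150 against 174 FPKM at 300 days, and 78.0 at 700 days against 105 FPKM at 50 days.

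**Figure D1:**
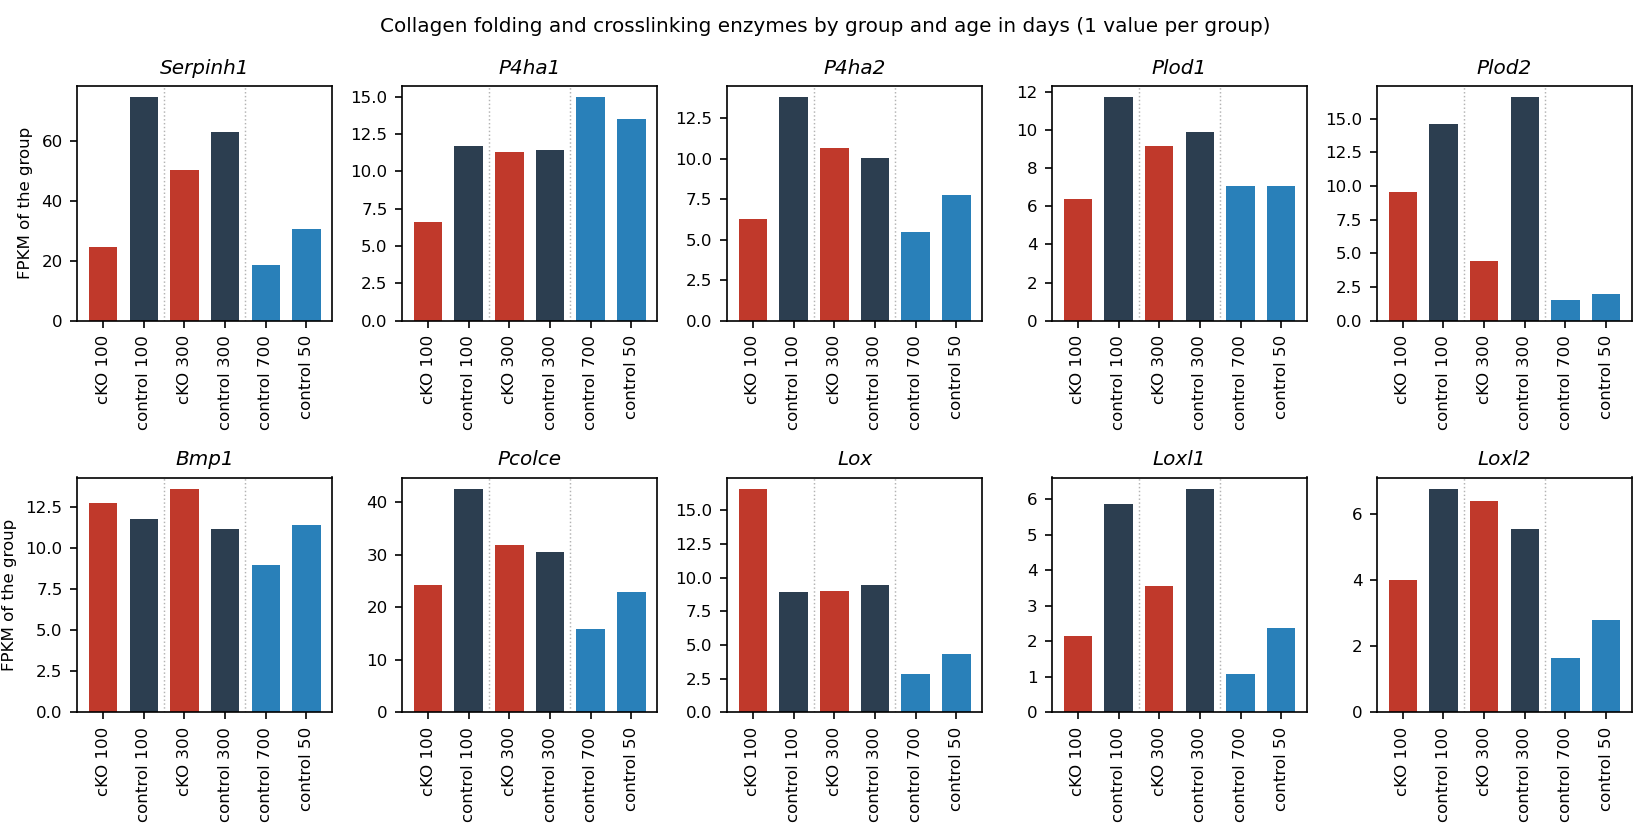
FPKM of each enzyme gene in the 6 groups (cKO red, controls of the same prefix dark, 700- and 50-day controls blue; 1 bar per group value, no error bars, axes start at 0). Serpinh1 is 24.5 FPKM in cKO and 74.6 in control skin at 100 days, Lox is highest in cKO skin at 100 days at 16.6 FPKM, and Plod2 is 4.41 FPKM in cKO and 16.6 in control skin at 300 days.

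The first comparison set cKO against control skin at 100 days. Of the 10 genes 3 were counted as lower in cKO skin, where 4.29% of the named genes were, and 0 as higher, where 2.18% were. The 3 were the chaperone Serpinh1, the hydroxylase subunit P4ha2 and the oxidase Loxl1. Without genes averaging under 5 FPKM, which leaves out Loxl1, the count was 2. The log2 ratio was below 0 for 8 of 10, where 48.3% of the named genes were. The median was -0.76, against a median of 0.02 over all named genes.

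Serpinh1 was 24.5 FPKM in cKO and 74.6 FPKM in control skin at 100 days, a log2 ratio of -1.57. The chaperone had the lowest ratio of the 10, and 1.32% of the named genes lay below it. P4ha2 was 6.25 against 13.8 FPKM (log2 ratio -1.03), just past the size counted. Its partner isoform P4ha1 was 6.62 against 11.7 FPKM (-0.74), short of that size. Their shared partner P4hb, a protein disulfide isomerase with many other clients, was 195 against 188 FPKM (0.05). Plod1 was 6.40 FPKM in cKO and 11.7 FPKM in control skin (-0.78), and Plod2 was 9.57 against 14.6 FPKM (-0.56). Neither lysyl hydroxylase reached the size counted.

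Of the extracellular proteins, Pcolce was 24.2 FPKM in cKO and 42.6 FPKM in control skin at 100 days (-0.79), while the protease it assists, Bmp1, was 12.8 against 11.8 FPKM (0.11). The sign for Bmp1 turned to -0.01 when values were rescaled to equal totals. The 3 amine oxidases parted. Loxl1, which is needed for elastic fibre upkeep, was 2.14 against 5.87 FPKM (-1.13), and Loxl2, which also acts on basement membrane collagen, was 4.01 against 6.76 FPKM (-0.63). Lox, the main crosslinker of fibrillar collagen and elastin, was 16.6 against 8.91 FPKM (0.83), short of the size counted, and 3.86% of the named genes had a higher ratio. The ratio of Lox to Loxl1 was 7.77 in cKO and 1.52 in control skin.

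Markers of other tissue parts differed between the same groups. Of 10 adipocyte markers 10 were lower in cKO skin, summing to 2468 FPKM against 7744 in control skin, and of 11 hair follicle markers 6 were higher and 0 lower, summing to 5378 against 1659 FPKM. Pdgfra, the receptor that marks fibroblasts (row shared with a microRNA), was 17.6 against 21.4 FPKM, and the proteoglycan Dcn was 269 against 236 FPKM. Over all 16 fibroblast markers 12 had ratios below 0, with a median of -0.53. Of 15 immediate early genes, which respond to tissue handling, 4 were lower and 0 higher (median -0.35). Among 11 skeletal muscle markers 3 were lower (13743 against 20791 FPKM in sum). Of 10 keratinocyte markers 0 were counted, but 8 had ratios above 0 (3653 against 2703 FPKM in sum). Of 9 endothelial markers 0 were counted, but 9 had ratios below 0 (median -0.54). Of the fibroblast markers 2 were lower and 1 higher: Lum at 18.0 against 64.4 FPKM, Mfap5 at 10.5 against 23.7 FPKM and Dpp4 at 33.8 against 12.9 FPKM. The part of these differences in the enzyme values was not tested.

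**Figure D2:**
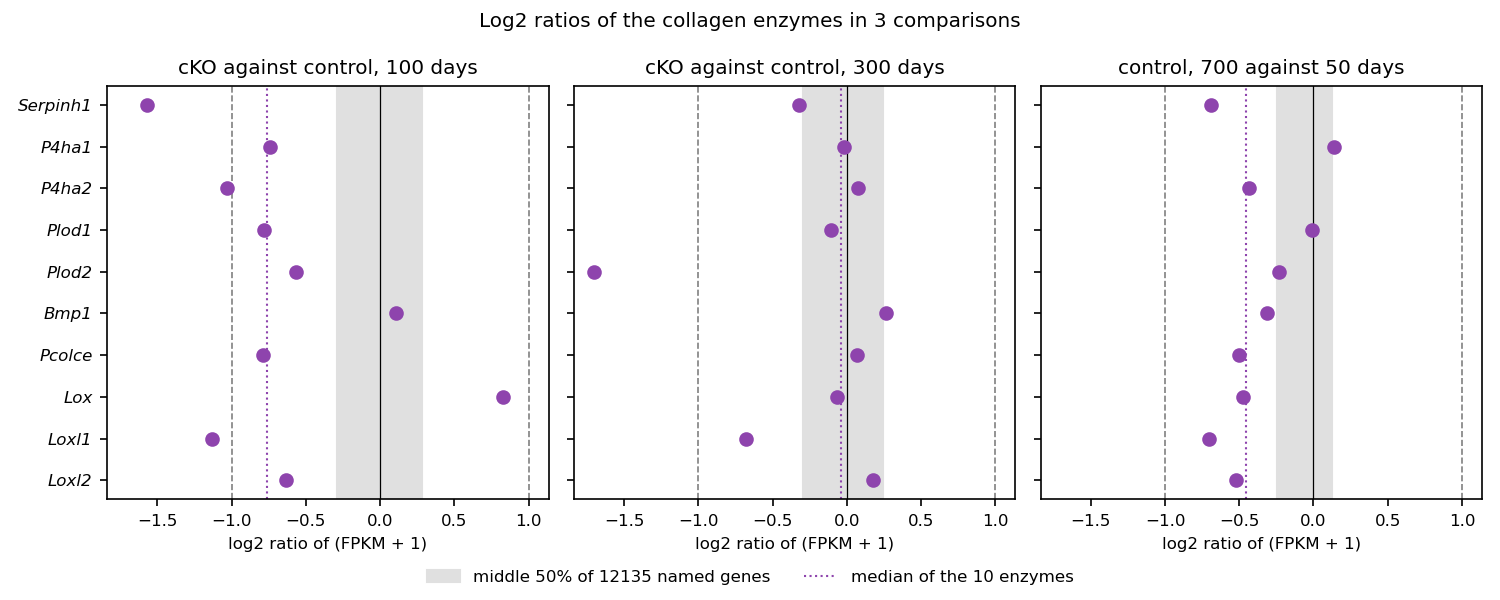
Log2 ratio of (FPKM + 1) of each enzyme gene for cKO over control skin at 100 and at 300 days and for 700- over 50-day control skin (points: 1 ratio of group values each; grey band: middle 50% of the named genes; dotted line: median of the 10 genes; dashed lines: the size counted). At 100 days 8 of 10 points lie below 0, at 300 days Plod2 alone lies past the size counted at -1.70, and at 700 days 9 of 10 lie below 0 with none past it.

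At 300 days the same genotype comparison gave values near those of controls for most of the enzymes, and a low value for Plod2. Of the 10 genes 1 was counted as lower, where 5.07% of the named genes were, and 0 as higher, where 1.84% were. Below 0 were 6 of 10, where 51.3% of the named genes were, with a median of -0.04, against -0.01 over all named genes.

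Plod2, the telopeptide lysyl hydroxylase, was 4.41 FPKM in cKO and 16.6 FPKM in control skin at 300 days, a log2 ratio of -1.70, with 1.56% of the named genes below it. Its relative Plod1 was 9.15 against 9.92 FPKM (-0.10), so that Plod1 stood at 2.08 times Plod2 in cKO skin and at 0.597 times in control skin. At 100 days that ratio was 0.669 in cKO and 0.801 in control skin. Loxl1 was the next lowest, at 3.55 against 6.29 FPKM (-0.68), and Serpinh1 was 50.3 against 63.0 FPKM (-0.32). P4ha1 was 11.3 against 11.4 FPKM (-0.02, or 0.02 when values were rescaled to a common median), and P4ha2 was 10.6 against 10.1 FPKM (0.07). Lox was 9.0 against 9.46 FPKM (-0.07), Pcolce 31.9 against 30.5 FPKM (0.07), Loxl2 6.39 against 5.53 FPKM (0.18) and Bmp1 13.6 against 11.2 FPKM (0.26). None of these last 4 reached the size counted.

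At 300 days all 10 lymphocyte markers were lower in cKO skin, summing to 11.1 FPKM against 361 FPKM in controls, and of 9 macrophage markers 5 were lower (160 against 390 FPKM in sum). The lymphocyte markers were high in the 300-day controls, where the 100-day controls summed to 11.1 FPKM. Adipocyte markers were lower in 7 of 10 cases (2768 against 5684 FPKM), and hair follicle markers higher in 4 of 11 (2806 against 2425 FPKM). Of 10 keratinocyte markers 2 were higher and 10 had ratios above 0 (4331 against 2773 FPKM in sum). Of 9 endothelial markers 0 were counted, but 9 had ratios below 0 (median -0.57). Of the fibroblast markers Pi16 was lower at 7.79 against 25.6 FPKM and Thy1, which T cells carry too, at 18.7 against 45.0 FPKM. Of the 16 markers 11 had ratios below 0, with a median of -0.43. Among the immediate early genes 2 of 15 were higher and 0 lower (median 0.40). What these differences contribute to the enzyme values was not tested.

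The genotype differences at the 2 ages were then set against each other, as the log2 ratio at 300 days minus that at 100 days. Of the 10 genes 2 were counted as higher at 300 days, where 3.84% of the named genes were, and 1 as lower, where 4.68% were. The median difference was 0.70, against -0.02 over all named genes. Serpinh1 had the largest difference of the 10 upward at 1.25 and P4ha2 followed at 1.10, since both were lower in cKO skin mainly at 100 days. Plod2 stood at -1.14 and Lox at -0.90. Between these extremes Pcolce was at 0.86, Loxl2 at 0.81, P4ha1 at 0.73, Plod1 at 0.68, Loxl1 at 0.45 and Bmp1 at 0.15. The groups hold 1 value each, so whether the difference between ages exceeds the spread of the samples was not tested.

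**Figure D3:**
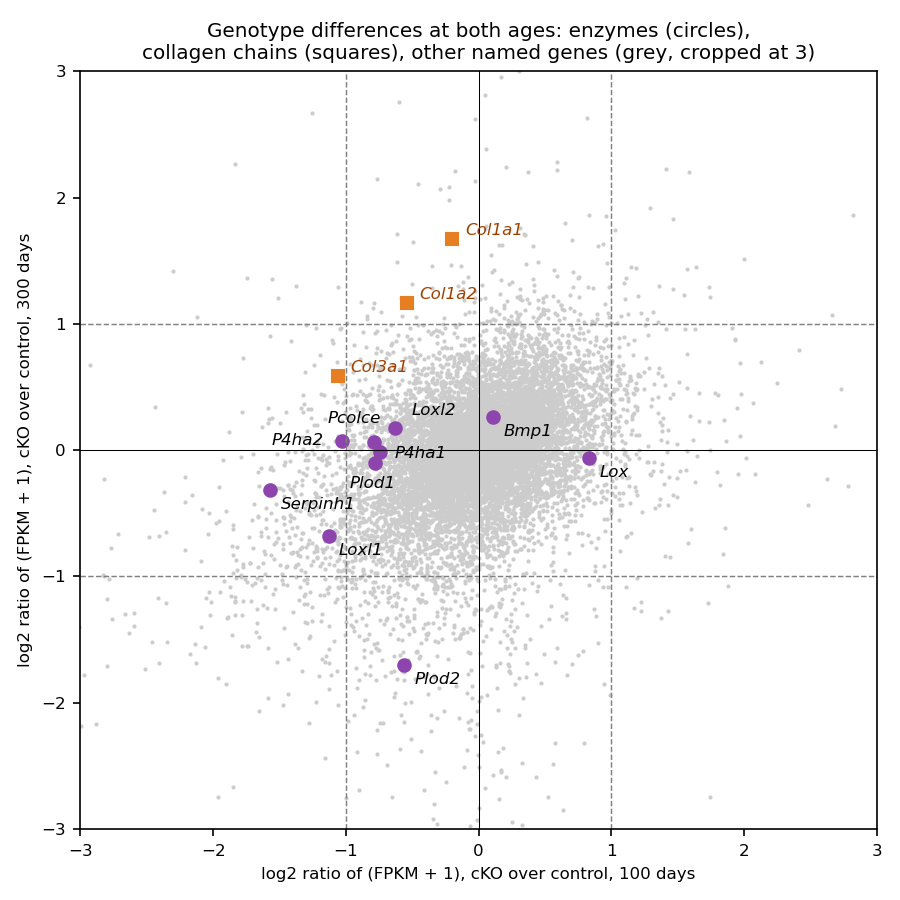
Log2 ratio of (FPKM + 1), cKO over control, at 100 days (horizontal) and 300 days (vertical) for the enzyme genes (circles), 3 fibrillar collagen chains (squares) and the other named genes (grey). Most enzymes lie left of 0 and near 0 vertically, Lox lies to the right at 0.83, Plod2 lies low at -1.70, and Col1a1 lies high at 1.67.

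The enzymes can be read against the chains they act on, since FPKM is scaled to gene length. At 100 days Col1a1, a chain of type I collagen, was 151 FPKM in cKO and 173 FPKM in control skin (-0.20), Col1a2 was 166 against 242 FPKM (-0.54) and Col3a1, whose row carries a further symbol, was 881 against 1842 FPKM (-1.06). At 300 days Col1a1 was 544 against 170 FPKM (1.67), Col1a2 545 against 242 FPKM (1.17) and Col3a1 2608 against 1736 FPKM (0.59). None of the 10 enzymes was counted as higher at that age. Serpinh1 stood at 9.25 FPKM per 100 FPKM of Col1a1 in cKO skin at 300 days and at 37.0 in control skin. At 100 days it stood at 16.2 in cKO and 43.2 in control skin. P4ha2 per 100 FPKM of Col1a1 was 1.95 in cKO and 5.91 in control skin at 300 days, and Plod2 was 0.810 against 9.75. For Lox the values were 1.65 in cKO and 5.56 in control skin at 300 days, and 11.03 against 5.15 at 100 days. All 10 enzymes stood lower per FPKM of Col1a1 in cKO than in control skin at 300 days, and all 10 per FPKM of Col3a1. Per FPKM of the fibroblast gene Pdgfra, 8 of 10 stood higher in cKO skin at that age, Plod2 and Loxl1 being the exceptions. Per FPKM of Dcn, also a fibroblast gene, all 10 stood lower. At 300 days the middle 50% of the named genes ran from -0.29 to 0.24, and 1.84% of them reached a log2 ratio of 1. Col1a1 (1.67), Col3a1 (0.59) and Dcn (0.63) lay above that middle range and Pdgfra (-0.58) below it. Most named genes therefore stood on the same side, and these counts at 300 days are not particular to the enzymes. At 100 days 2 of 10 stood higher in cKO skin per FPKM of Col1a1 and 2 per FPKM of Pdgfra. The count was 1 per FPKM of Dcn but 7 per FPKM of Col3a1. The direction of such a ratio thus depended on the gene it was taken over.

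**Figure D4:**
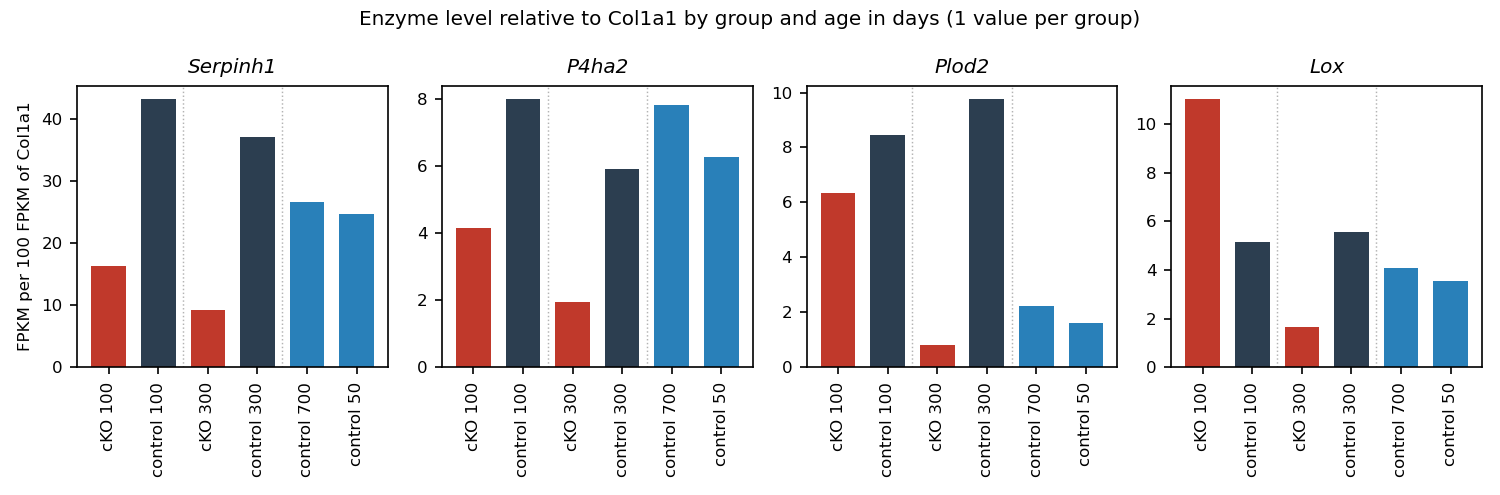
FPKM of Serpinh1, P4ha2, Plod2 and Lox per 100 FPKM of Col1a1 in the 6 groups (1 bar per group, no error bars, axes start at 0). Serpinh1 stands at 9.25 in cKO and 37.0 in control skin at 300 days, and Lox at 11.03 in cKO and 5.15 in control skin at 100 days.

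Within cKO skin, 300-day values were set against 100-day values. Of the 10 genes 1 was counted as higher at 300 days, where 2.38% of the named genes were, and 0 as lower, where 1.43% were. The median was 0.50, against 0.02 over all named genes. Serpinh1 was 50.3 FPKM at 300 days and 24.5 FPKM at 100 days (log2 ratio 1.01). It was 0.97 when values were rescaled to a common median and 0.94 at equal totals, below the size counted. P4ha1 and P4ha2 had log2 ratios of 0.69 and 0.68, and Loxl2, Loxl1, Plod1, Pcolce and Bmp1 lay from 0.56 down to 0.09. Plod2 was 4.41 FPKM at 300 days against 9.57 FPKM at 100 days (-0.97), and it passed the size counted at both other pseudocounts and both rescalings (-1.01 to -1.10). Lox was 9.0 against 16.6 FPKM (-0.82). Over the same ages Col1a1 was 544 against 151 FPKM (1.85). Of the hair follicle markers 5 of 11 were lower at 300 than at 100 days, of the skeletal muscle markers 3 of 11 were higher, and of the immediate early genes 3 of 15 were higher. The part of these differences in the enzyme values was not tested.

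Within control skin, the 300- and 100-day values of the enzymes lay closer together. None of the 10 genes was counted in either direction, where 3.4% of the named genes were higher and 1.02% lower. The log2 ratios ranged from -0.47 for Pcolce, at 30.5 FPKM at 300 days against 42.6 FPKM at 100 days, to 0.17 for Plod2, at 16.6 against 14.6 FPKM. Rescaled to equal totals, Plod2 was -0.02, Lox -0.10 and Loxl1 -0.09, each with its sign turned. The median was -0.14, against 0.03 over all named genes. Col1a1 was 170 against 173 FPKM (-0.02). The 10 lymphocyte markers summed to 361 FPKM at 300 days and 11.1 FPKM at 100 days, with 10 of 10 higher. Of 9 macrophage markers 4 were higher (390 against 175 FPKM in sum), as were 2 of 11 hair follicle markers and 1 of 16 fibroblast markers. Of 15 immediate early genes 3 were lower, and of 10 adipocyte markers 1 was. The part of these differences in the control enzyme values was not tested.

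The last comparison addressed age within controls, with 700-day set against 50-day controls. Nearly all enzymes were lower in the old group by less than the size counted. Of the 10 genes 0 were counted as lower, where 3.24% of the named genes were, and 0 as higher, where 0.602% were. The log2 ratio was below 0 for 9 of 10, where 55.2% of the named genes were, with Plod1 at -0.01. The median was -0.46, against -0.03 over all named genes.

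Loxl1 had the lowest ratio, at 1.06 FPKM at 700 days against 2.36 FPKM at 50 days (-0.70). With a pseudocount of 0.1 its ratio was -1.08, past the size counted. Serpinh1 was 18.5 against 30.5 FPKM (-0.69), Loxl2 1.64 against 2.79 FPKM (-0.52) and Pcolce 15.9 against 22.9 FPKM (-0.50). Lox was 2.86 against 4.36 FPKM (-0.47), P4ha2 5.44 against 7.72 FPKM (-0.44) and Bmp1 9.01 against 11.4 FPKM (-0.31). These 7 genes cover chaperone, hydroxylase, propeptide removal and crosslinking steps. Plod2 was low in both groups, at 1.56 against 2.0 FPKM (-0.23). Plod1 was 7.04 against 7.08 FPKM (-0.01, and 0.05 and 0.09 when values were rescaled to a common median and to equal totals). P4ha1 alone was above 0, at 15.0 against 13.5 FPKM (0.14), so that P4ha1 stood at 2.75 times P4ha2 at 700 days and 1.75 times at 50 days.

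Of the 11 fibrillar and associated chains 10 had ratios below 0 at 700 days, the exception being Col12a1 (0.44). Col1a1 was 69.7 FPKM at 700 days against 123 FPKM at 50 days (-0.81), short of the size counted. Per 100 FPKM of Col1a1, Serpinh1 was 26.5 at 700 days and 24.7 at 50 days, and Lox was 4.10 against 3.53. Of the 10 enzymes 9 stood higher at 700 days per FPKM of Col1a1, and also 9 per FPKM of Col3a1 or Pdgfra. Per FPKM of Dcn 7 of 10 stood higher. Col3a1 was at -0.82, Pdgfra at -0.88 and Dcn at -0.61, and 10.4% of the named genes lay below the -0.52 of Loxl2. Most named genes therefore also stood higher per FPKM of each of these genes and of Col1a1, and the counts are not particular to the enzymes. All 16 fibroblast markers had ratios below 0, and 3 were counted as lower (Mfap5, Dpt and Fap). All 11 skeletal muscle markers were lower, summing to 97.7 FPKM at 700 days against 4051 FPKM at 50 days, and so were 9 of 10 adipocyte markers (294 against 1096 FPKM). Keratinocyte markers summed to 11843 against 9702 FPKM, with 2 of 10 higher. The part of these differences in the enzyme values was not tested.

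Other genes of the same pathway were described by fixed lists. Of 18 further genes of collagen folding, modification and export, 2 were lower and 0 higher in cKO skin at 100 days (median -0.35). P3h1, a prolyl 3-hydroxylase, had 4.41 FPKM in cKO skin, against 15.2 FPKM in controls (-1.58). Fkbp7, a prolyl isomerase of the endoplasmic reticulum, was 6.06 against 15.1 FPKM (-1.18). At 300 days 0 of 18 were counted (median -0.10), with P3h1 at 11.6 against 9.58 FPKM (0.25). In 700- against 50-day skin 0 of 18 were counted (median -0.12). Of 8 further maturation and crosslinking genes 0 were counted in any of these 3 comparisons, with medians of -0.18 and -0.09 for cKO at 100 and 300 days and -0.32 for 700 days. The fourth lysyl oxidase-like gene, Loxl4, was 1.85 against 0.857 FPKM in cKO and control skin at 100 days (0.62) and 2.63 against 1.17 FPKM at 300 days (0.74). Loxl3 was 1.43 against 3.41 FPKM at 100 days (-0.86).

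General chaperones of the endoplasmic reticulum lay near 0. Of 16 such genes 0 were counted in each of these 3 comparisons, with medians of -0.06, -0.09 and 0.01. Of 11 fibrillar and associated collagen chains 6 were lower in cKO skin at 100 days (median -1.03), among them Col6a3 at 18.9 against 70.6 FPKM and Col5a2 at 31.7 against 87.8 FPKM. At 300 days Col1a1 and Col1a2 were higher and Col5a3 lower, at 7.14 against 15.4 FPKM (median -0.16). At 700 days Col14a1 was lower at 0.871 against 7.32 FPKM at 50 days, and Col5a3 at 2.08 against 5.30 FPKM (median -0.84). Of 8 basement membrane chains 2 were lower in cKO skin at 100 days (median -0.42), Col15a1 at 29.2 against 116 FPKM and Col4a1 at 89.7 against 187 FPKM. At 300 days 0 of 8 were counted (median 0.07), and at 700 days 3 were lower (median -0.10). Of 13 elastic fibre genes, substrates and partners of Lox and Loxl1, 2 were lower at 100 days (median -0.55), 0 at 300 days (median -0.25) and 3 at 700 days (median -0.56). Elastin, Eln, was 9.90 FPKM in cKO and 14.9 FPKM in control skin at 100 days, 10.7 against 15.5 FPKM at 300 days, and 5.85 at 700 days against 9.13 FPKM at 50 days.

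Several of the enzymes are known targets of the hypoxia response and of TGF-beta, and those lists were given beside them. Of 19 hypoxia response genes 1 was higher and 1 lower in cKO skin at 100 days (median -0.19): Adm, the peptide adrenomedullin, at 5.06 against 1.75 FPKM, and Pfkfb3, a regulator of glycolysis, at 23.3 against 80.8 FPKM. At 300 days Car12, a carbonic anhydrase, was higher at 30.5 against 8.98 FPKM and Pfkfb3 lower at 23.8 against 71.5 FPKM (median 0.11). At 700 days the prolyl hydroxylase Egln3 was higher, at 21.6 against 8.0 FPKM (median 0.17). Of 12 TGF-beta response genes 4 were lower and 1 higher in cKO skin at 100 days (median -0.35). Among them Postn, a matrix protein that binds Bmp1, was 62.1 against 281 FPKM and Fn1, fibronectin, was 44.3 against 89.9 FPKM, while Smad7, an inhibitor of the pathway, was 24.2 against 7.31 FPKM. At 300 days 0 of 12 were counted (median -0.35), and at 700 days Fn1 was lower (median 0.02).

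**Figure D5:**
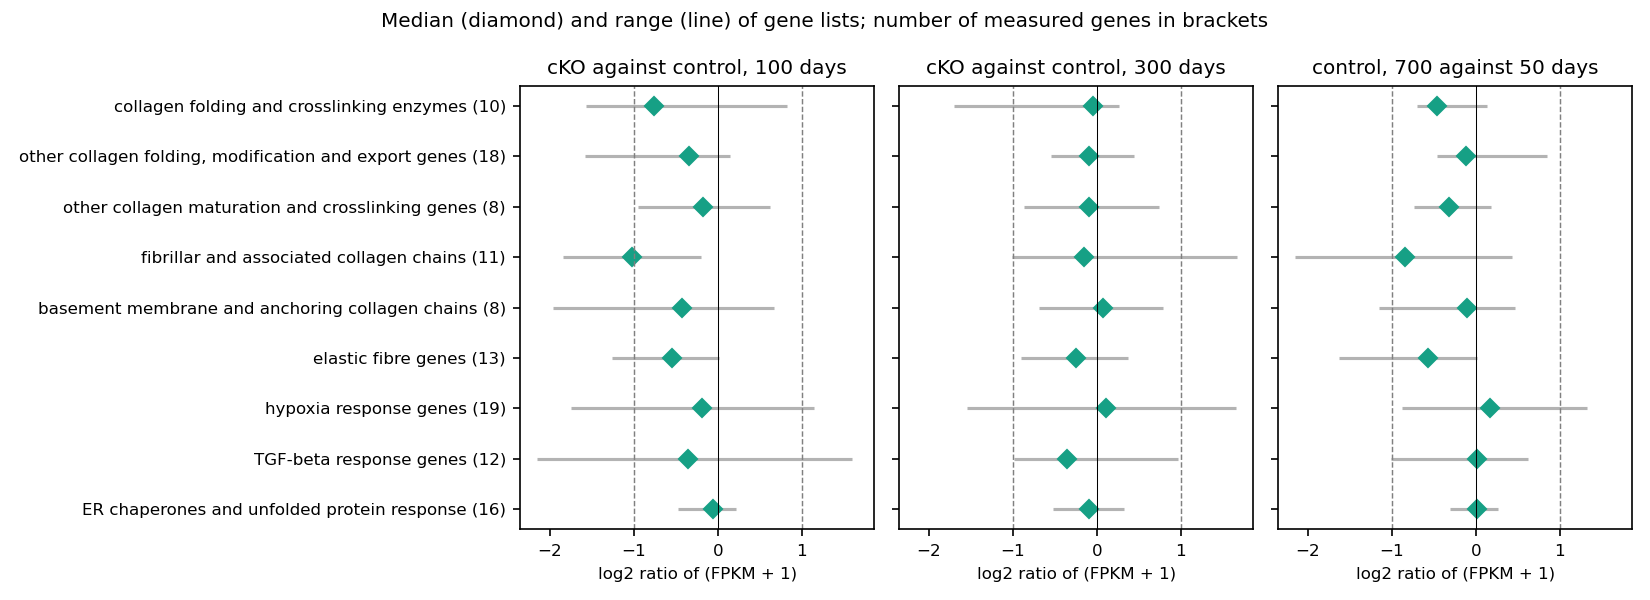
Median (diamond) and range (line) of the log2 ratio of (FPKM + 1) for the enzymes and 8 further gene lists in 3 comparisons, with the number of measured genes in brackets and dashed lines at the size counted. At 100 days the enzymes (median -0.76) and the fibrillar chains (-1.03) lie lowest, while the chaperones of the endoplasmic reticulum lie at -0.06.

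Across the 6 group values (log2 of FPKM + 1) Serpinh1 was most like Timm13, Col15a1, Tmem184b, Hibch and Col6a3, with Pearson's r from 0.995 for Timm13 to 0.990 for Col6a3 among 8649 genes averaging 5 FPKM or more. An r of at least 0.95 was reached by 76 genes. Col15a1 and Col6a3 encode collagen chains, and Hibch is a mitochondrial enzyme of valine breakdown. Among the enzymes r with Serpinh1 was 0.97 for P4ha2 and for Loxl1, 0.94 for Plod1 and Pcolce, 0.90 for Loxl2, 0.72 for Plod2, 0.45 for Bmp1, 0.40 for Lox and 0.02 for P4ha1. Loxl1 and Loxl2 average under 5 FPKM and are not among the 8649 genes. The 6 points fall into the 2 prefixes, between which levels differ, so these values describe the table and carry no test.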

How the data were processed

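RNA of total skin was sequenced in 20 samples of 6 groups, taken from the source names in the labels. Per the labels' protocols, RNA was depleted of ribosomal RNA with either of a pair of kits, and directional libraries were read for 75 cycles. Per the submitters' processing notes, HISAT2, Cufflinks and Cuffdiff were used against mm10. Roles, versions and annotation: not given in the sources used here; expression was deposited by the authors as FPKM in 6 columns, each for a whole group, and no source used here says how samples were pooled.

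From these, log2 ratios of (FPKM + 1) were taken. Adding 1 shrinks the ratios of low genes. No test was made. Named genes were single-symbol entries (leaving out predicted, Rik, clone, microRNA and pseudogene names) plus the 10 members, 19238 in all (98.4% found by symbol in GENCODE M21). Those with a mean of at least 1 FPKM (12135) entered, and 76 of them have a 0 in at least 1 column. Where a symbol had several rows the one with the highest mean was used. The members and lists were chosen with earlier results of these data known. Genes named beyond the members follow a fixed rule: main collagen chains, elastin, Sod2, fibroblast genes, up to 4 genes of each list past the size counted, and the 5 genes most like Serpinh1. Within a list the genes named were not always the largest by size. For cKO against control at 100 days Col5a2 (-1.44) was named and Col5a3 (-1.67) was not. P4hb, P3h1 at 300 days, Loxl3, Loxl4, Lum, Mfap5, Dpp4, Pi16, Dpt, Fap, S100a4, Col12a1 and Xist were named after their values were seen. Counting was run on simulated data whose planted changes lay far past the size counted, so calls near that size were not tested. Alternatives were other pseudocounts (0.1, 0.5), filters (none, 5 FPKM), a common median, equal totals (TPM) and summed rows. Python 3.11.15, pandas 2.3.3, numpy 2.4.6 and matplotlib 3.10.9 were used. The values of 1 gene of the TGF-beta list are not reported here.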

Additional observations from a re-analysis of the deposited data

How the results depend on the processing

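The medians of the enzymes kept their sign under each of the 8 alternatives in all 6 comparisons. The fold they stand for moved by less than 1.5 times. The filter at a mean of 5 FPKM and the setting without shared rows left out enzymes, so those medians were over the rest. The medians ranged from -0.91 to -0.74 for cKO against control at 100 days. They ranged from -0.08 to -0.01 at 300 days and -0.51 to -0.38 for 700 against 50 days. Counts of enzymes moved by more than 1.5 times in 3 cases. For cKO skin at 300 against 100 days the count was 2 with a pseudocount of 0.1 and 2 with 0.5, where Plod2 was added. For 700 against 50 days it was 1 with a pseudocount of 0.1, where Loxl1 was added. Of the 7 sign changes of single enzymes, each was of a ratio within 0.2 of 0. A filter at a mean of 5 FPKM left out Loxl1 and Loxl2, and the count for cKO against control at 100 days was then 2 against 3. Leaving out the members whose rows carry a further symbol was chosen after seeing the data and moved no count by more than 1.5 times.

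Counts of all named genes moved more. With a pseudocount of 0.1 they were 1276 against 785 for cKO at 100 days, 837 against 463 for cKO skin at 300 against 100 days and 906 against 466 for 700 against 50 days. With a filter at 5 FPKM they were 502, 421, 262, 221 and 537 for cKO at 100 and at 300 days, cKO and control skin at 300 against 100 days and the genotype difference, against 785, 838, 463, 536 and 1034, since fewer genes entered. Rescaling to equal totals shifted the median of all genes by -0.12 for cKO at 100 days, -0.18 for control skin at 300 against 100 days and 0.10 for the genotype difference. The splits were then 236 higher and 797 lower, 361 and 234, and 696 and 536, against 264 and 521, 412 and 124, and 466 and 568. Serpinh1 for cKO at 100 days was -1.71 on that scale.

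Leaving out single samples was not run, since the table holds 1 value per group. No paired analysis was possible because the columns carry no sample values. Depth is unknown, so counting error cannot be given.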
